A study of Mus musculus with 18 samples.

Results

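The DNA replication and E2F target genes described here are 51 genes that license, start, carry out and supply the copying of DNA, with the E2F transcription factors and E cyclins that act around them. They were picked by gene symbol, and all 51 were found among the 21959 genes measured. All 51 also had enough counts to be among the 13375 genes tested. RNA with poly-A tails was sequenced from MOVAS cells, a mouse aortic smooth muscle cell line, in 6 groups of 3 libraries each. Dox cells were given doxorubicin, an anthracycline that damages DNA, and H2O2 cells were given hydrogen peroxide, an oxidant. D_I, H_I and B_I cells have isoliensinine, an alkaloid of lotus, as their single labelled agent. From the matching titles they were taken as Dox, H2O2 and Blank cells that also received it. Blank cells were given none of these agents. The sources used here give neither doses nor times. The design text names doxorubicin and peroxide as ways to make the cells senescent, and the series' title is about isoliensinine and the removal of such cells by natural killer cells. All groups are 1 immortalised line. As background, MOVAS cells carry the large T antigen of a simian virus, a protein that binds p53 and the retinoblastoma proteins, the natural brakes on E2F.

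Before a cell copies its DNA, the origin recognition complex with Cdc6 and Cdt1 loads the Mcm helicase onto origins, a step called licensing. Mcm10, Cdc45 and the GINS complex then turn the loaded helicase on, primase and the DNA polymerases copy both strands, and the sliding clamp PCNA with its loader, the single-strand binding protein RPA, the flap endonuclease Fen1 and DNA ligase Lig1 complete them. Ribonucleotide reductase, thymidylate synthase, thymidine kinase and dUTPase supply nucleotides, and CAF-1, Asf1b, Dnmt1 and Uhrf1 rebuild chromatin and its methylation behind the fork. E2F factors switch on many of these genes as cells enter S phase, once cyclin-dependent kinases with cyclins D and E have released E2F from the retinoblastoma proteins. Genes needed later, in mitosis, are switched on through other promoter elements, the CCAAT box and the cell cycle homology region. Vascular smooth muscle cells rest in the healthy artery wall and use this programme when they divide, and low levels of these genes are usual in senescent cells.

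Promoters are shown for the members with the 2 largest called rises and the 2 largest called falls in Dox against Blank, and for Mcm6, Cdt1 and Orc1, added after their values were seen as called members that hold an E2F word. The sequences are from RefSeq on GRCm38.p6, matched by symbol, and run from 250 bases before to 50 bases after an annotated start, the most upstream one where a gene has several. Capitals mark the 3 kinds of word searched on both strands: the E2F words TTTCCCGC, TTTGGCGC, TTTCGCGC and TTTGCCGC, the CCAAT box as CCAAT, and the cell cycle homology region as TTTGAA. Windows of genes on the minus strand are written in the direction of the gene. They lie at Rrm2 chr12:24708004-24708303 (plus strand), Mcm10 chr2:5012742-5013041 (minus strand), Orc1 chr4:108579204-108579503 (plus strand), Chaf1b chr16:93883651-93883950 (plus strand), Pold2 chr11:5878207-5878506 (minus strand), Mcm6 chr1:128359656-128359955 (minus strand) and Cdt1 chr8:122567765-122568064 (plus strand). Rrm2, Mcm10 and Orc1 are members that rose in Dox against Blank, and Chaf1b, Pold2, Mcm6 and Cdt1 are members that fell.
Rrm2: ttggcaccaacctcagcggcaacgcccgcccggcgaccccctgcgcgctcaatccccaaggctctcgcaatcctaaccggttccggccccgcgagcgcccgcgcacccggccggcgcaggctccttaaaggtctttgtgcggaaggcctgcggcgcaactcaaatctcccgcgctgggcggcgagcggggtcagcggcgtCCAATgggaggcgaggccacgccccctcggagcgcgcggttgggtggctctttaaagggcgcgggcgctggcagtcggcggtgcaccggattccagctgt
Mcm10: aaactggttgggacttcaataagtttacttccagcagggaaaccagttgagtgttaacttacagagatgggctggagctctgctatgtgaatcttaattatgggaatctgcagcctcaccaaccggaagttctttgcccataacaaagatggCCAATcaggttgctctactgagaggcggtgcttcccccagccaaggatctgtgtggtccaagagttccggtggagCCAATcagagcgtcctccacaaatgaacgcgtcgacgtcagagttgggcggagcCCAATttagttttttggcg
Orc1: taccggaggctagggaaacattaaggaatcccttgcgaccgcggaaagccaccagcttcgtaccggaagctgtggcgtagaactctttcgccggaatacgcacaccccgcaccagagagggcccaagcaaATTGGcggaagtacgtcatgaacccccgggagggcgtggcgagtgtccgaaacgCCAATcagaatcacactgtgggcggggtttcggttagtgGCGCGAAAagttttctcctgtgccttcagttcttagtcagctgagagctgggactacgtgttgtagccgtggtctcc
Chaf1b: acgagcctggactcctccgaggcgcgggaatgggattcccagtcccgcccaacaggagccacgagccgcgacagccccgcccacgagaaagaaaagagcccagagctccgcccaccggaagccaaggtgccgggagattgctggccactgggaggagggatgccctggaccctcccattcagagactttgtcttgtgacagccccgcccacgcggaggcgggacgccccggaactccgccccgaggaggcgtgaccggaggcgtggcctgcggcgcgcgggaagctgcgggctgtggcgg
Pold2: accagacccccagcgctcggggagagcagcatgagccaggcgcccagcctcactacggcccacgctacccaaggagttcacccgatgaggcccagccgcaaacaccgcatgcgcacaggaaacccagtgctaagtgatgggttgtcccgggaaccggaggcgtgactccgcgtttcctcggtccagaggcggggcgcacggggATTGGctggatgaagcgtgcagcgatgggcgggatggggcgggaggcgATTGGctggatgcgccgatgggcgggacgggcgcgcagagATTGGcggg
Mcm6: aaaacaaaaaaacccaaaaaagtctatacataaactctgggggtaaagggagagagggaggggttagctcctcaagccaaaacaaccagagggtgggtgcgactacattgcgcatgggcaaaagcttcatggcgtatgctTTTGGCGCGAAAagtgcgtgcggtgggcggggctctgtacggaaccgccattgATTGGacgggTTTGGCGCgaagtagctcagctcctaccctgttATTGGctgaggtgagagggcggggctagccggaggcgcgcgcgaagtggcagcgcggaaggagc
Cdt1: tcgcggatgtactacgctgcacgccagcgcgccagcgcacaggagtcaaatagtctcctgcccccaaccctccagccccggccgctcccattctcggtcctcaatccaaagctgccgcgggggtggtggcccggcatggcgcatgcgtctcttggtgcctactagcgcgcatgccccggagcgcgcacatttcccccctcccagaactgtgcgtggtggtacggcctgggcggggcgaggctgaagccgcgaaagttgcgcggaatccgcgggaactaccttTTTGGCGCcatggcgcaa

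The Mcm6 window holds 3 E2F words and 2 CCAAT words. At its first place 2 E2F words overlap on opposite strands and are different words of the set. Orc1 holds 1 E2F word and 2 CCAAT words, and Cdt1 holds 1 E2F word and no other. Rrm2 holds 1 CCAAT word, and Mcm10 and Pold2 hold 3 each, with no E2F word. The Mcm10 window ends in the letters of TTTGGCGC without its last base. The next base lies outside the window, so an E2F word may be cut off there. The window of Chaf1b holds none of these words, which says only that these letters are absent from the window. A window was at hand for 44 of the 51 members, and 17 of the 44 (38.6%) held an E2F word, against 704 of 27025 genes with a window (2.60%). A CCAAT word stood in 29 of the 44 (65.9%), against 41.1% of all genes with a window. The cell cycle homology region stood in 9 of the 44 (20.5%), against 20.2% of all. A gene counts in these shares when a window of any of its annotated starts holds the word, so a word can stand in a window not printed here. By the GENCODE vM21 annotation of the same build, the only windows at hand for E2f1 and Dut hold 188 and 130 bases of their own coding sequence and lie downstream of another annotated start, so they are unlikely to show the promoters. Neither holds a word, and both are still counted among the 44, which lowers the shares. A window of Dnmt1 and one of E2f2, each beside other windows of the gene, hold 80 and 46 coding bases, and the cell cycle homology region of E2f2 and the E2F words of Dnmt1 stand in them alone. These words are counted in the shares. These are matches of letters, not measured binding.

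The libraries held 12859609 to 23284077 counts, and the 3 Dox libraries, with 20140802 or more, were the deepest, the highest total outside Dox being 17955971. Levels are given in CPM, counts scaled to library size with the trimmed mean of M values (TMM), and tests are quasi-likelihood F tests of edgeR, adjusted by Benjamini-Hochberg over all 13375 genes and called at an adjusted p under 0.05. Of 8 smooth muscle markers, Acta2 stood at 806 to 4514 CPM over the libraries, while Tagln, a defining marker, was at 0 to 0.809 CPM. The 8 markers together, chiefly Acta2, were highest in Blank_4 (5655 CPM) and B_I_3 (4876 CPM), against 1474 to 3858 CPM in the other 16 libraries. Acta2 alone was at 4514 CPM in Blank_4 and 3875 CPM in B_I_3, and Myl9, Smtn and Tpm2 were also highest there. Myh11 was not, with 1.80 and 3.34 CPM in a range of 1.30 to 31.7. Nor was Cnn1, with 6.31 and 3.79 CPM in a range of 1.31 to 12.8. Colon and liver markers were highest in H_I_1 (669 and 291 CPM). In the other libraries they summed to 37.8 to 255 CPM for colon and 31.4 to 103 CPM for liver. The 5 lymphocyte markers summed to 0 to 1.18 CPM. The 5 fibroblast markers, chiefly Col1a1, summed to 2109.9 to 2249.8 CPM in Dox, 2212 to 2379 in D_I, 2862 to 3747 in H2O2, 3059 to 3612 in H_I, 4760 to 5639 in B_I and 5245 to 6487 in Blank. This sum was lower in Dox and D_I, as many members were, and so were Pdgfra and Pdgfrb. Dcn was higher in Dox (4.56 to 5.87 CPM) than in Blank (2.53 to 4.36 CPM) and overlapped between D_I and B_I. Lum was at 0 to 2.21 CPM. The part of these markers in the results was not tested. The 6 macrophage markers summed to 10.9 to 49.3 CPM and the 5 endothelial ones to 1.99 to 10.6. Results were also computed under 14 alternatives for each comparison, among them fits without Blank_4 and B_I_3, without H2O2_3 and H_I_1, and without each library of the groups compared. In bulk RNA, fewer cells in S phase and less RNA of these genes per cell cannot be told apart.

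Per length, in FPKM, the members differed widely in abundance. Licensing genes stood at the top: Mcm5 averaged 296 FPKM over the 18 libraries, Mcm7 204, Mcm3 141, Mcm6 127, Cdt1 94.01 and Mcm2 93.2. The remaining helicase subunit, Mcm4, averaged 21.4 FPKM and ranked 30 of 51. At the bottom were Fen1 (0.58 FPKM), Pola1 (0.445) and Ccne2 (0.443), whose values rest on few counts and vary widely. Fen1 overlaps Tmem258 and Ccne2 overlaps Ints8, both on the opposite strand. Strand use in counting is not stated, so the low levels of Fen1 and Ccne2 are uncertain. Pcna averaged 19.1 FPKM and ranked 32 of 51. Pcna and Tyms have annotated pseudogenes and 13 members overlap another gene in the table, so their counts are uncertain where reads could be shared, among the called ones those of Tyms, Tk1, Lig1, Rfc2, Mcm7 and Cdc45. The genes most used below lie, in the deposited table's coordinates, whose build is not given and whose positions differ from those of the windows above, at chr16:93680789-93703003 for Chaf1b (ENSMUSG00000022945), chr11:5822180-5828292 for Pold2 (ENSMUSG00000020471), chr12:24758240-24764145 for Rrm2 (ENSMUSG00000020649) and chr2:4994525-5017602 for Mcm10 (ENSMUSG00000026669). Summed over the 51 members, the level was 9258, 9525 and 8919 CPM in Dox, 8987, 8938 and 8914 in D_I, 8872, 8995 and 9788 in H2O2, 8579.8, 9205 and 9102 in H_I, 9800.3, 10106 and 11515 in B_I and 9659, 9514 and 11740 in Blank. All D_I sums lay below all B_I sums. The Dox and Blank sums overlapped by 1 library, Dox_2 being just above Blank_2. Blank_4 and B_I_3 were the highest of the 18.

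**Figure D1:**
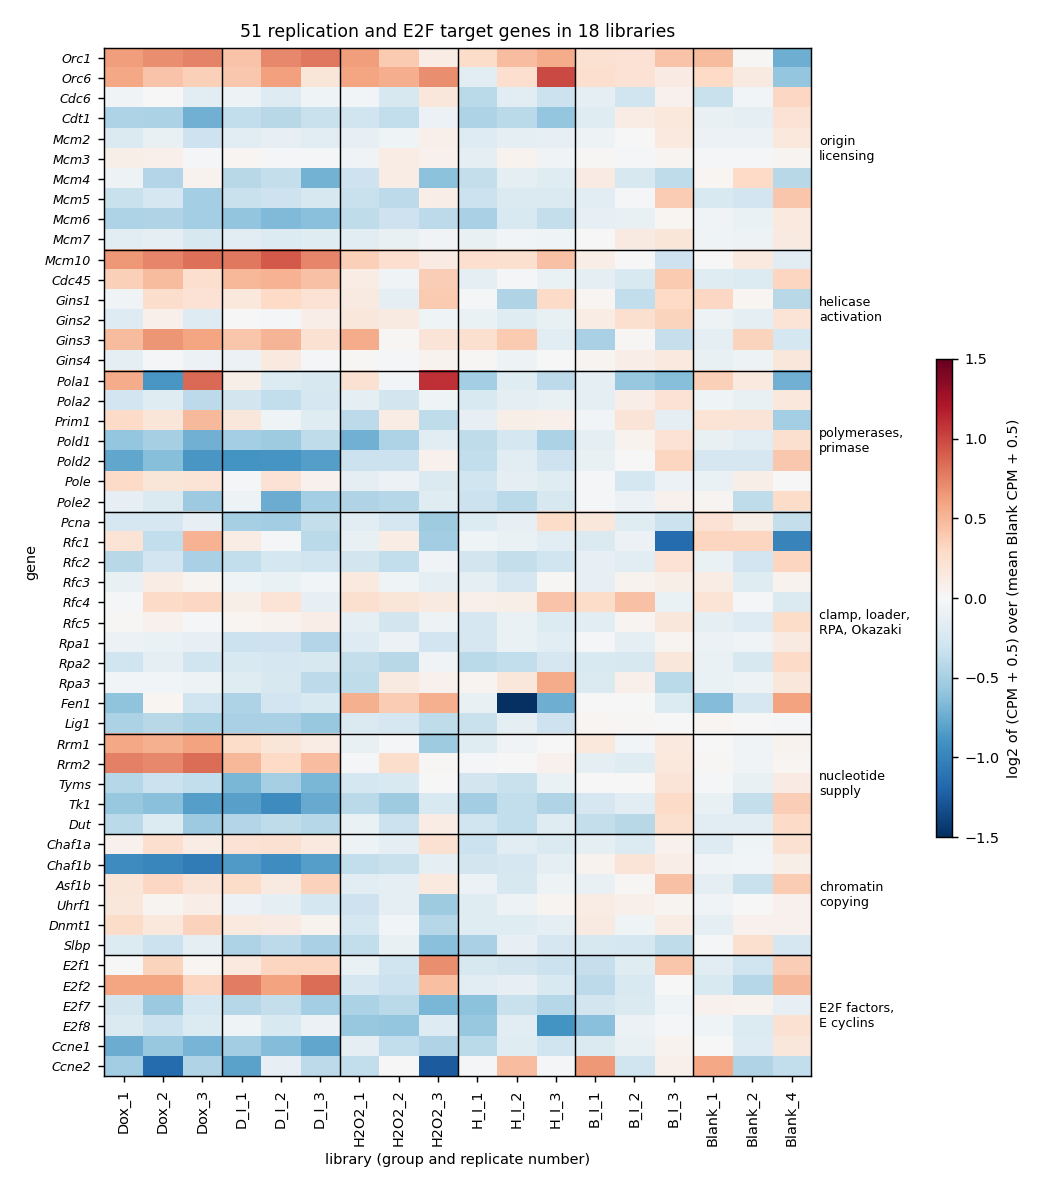
Level of each of the 51 members (rows, grouped by role) in each of the 18 libraries (columns, Dox at the left and Blank at the right), as log2 of CPM + 0.5 over the mean Blank CPM + 0.5. Chaf1b, Pold2, Tk1 and Mcm6 are blue across Dox and D_I, Rrm2 and Mcm10 red, and Mcm3 stays near white.

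With doxorubicin alone the members moved in both directions. Of 51 members, 4 were higher and 10 lower in Dox (27.5% called), against 21.7% of all tested genes, 10.3% higher and 11.4% lower. Median log2 was -0.10 over the members and 0.08 over all tested genes. The comparison of D_I with B_I repeats the question in cells given isoliensinine and shares no library with the first: 5 members were higher and 12 lower (33.3% called), against 18.8% of all genes, 9.41% each way, with medians of -0.15 and 0.08. Without overlap of the 3 libraries of each group, 8 members lay higher and 17 lower in Dox than in Blank (19.6% and 16.5% of all genes), and 7 higher and 21 lower in D_I than in B_I (21.1% and 17.1%). Of the members lower in Dox, 9 were also lower in D_I, which is 90% of the first list and 75% of the second. These were Chaf1b, Pold2, Pold1, Tk1, Tyms, Ccne1, Cdt1, Mcm6 and Lig1. Over all tested genes 981 falls were shared, 64.4% and 77.9% of the lists. Mcm10 and Rrm2 rose in both, 50% and 40% of the members that rose, and 0 members were called in opposite directions. The log2 change had the same sign in both comparisons for 44 of 51 members (86.3%), against 77.9% of all tested genes.

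**Figure D2:**
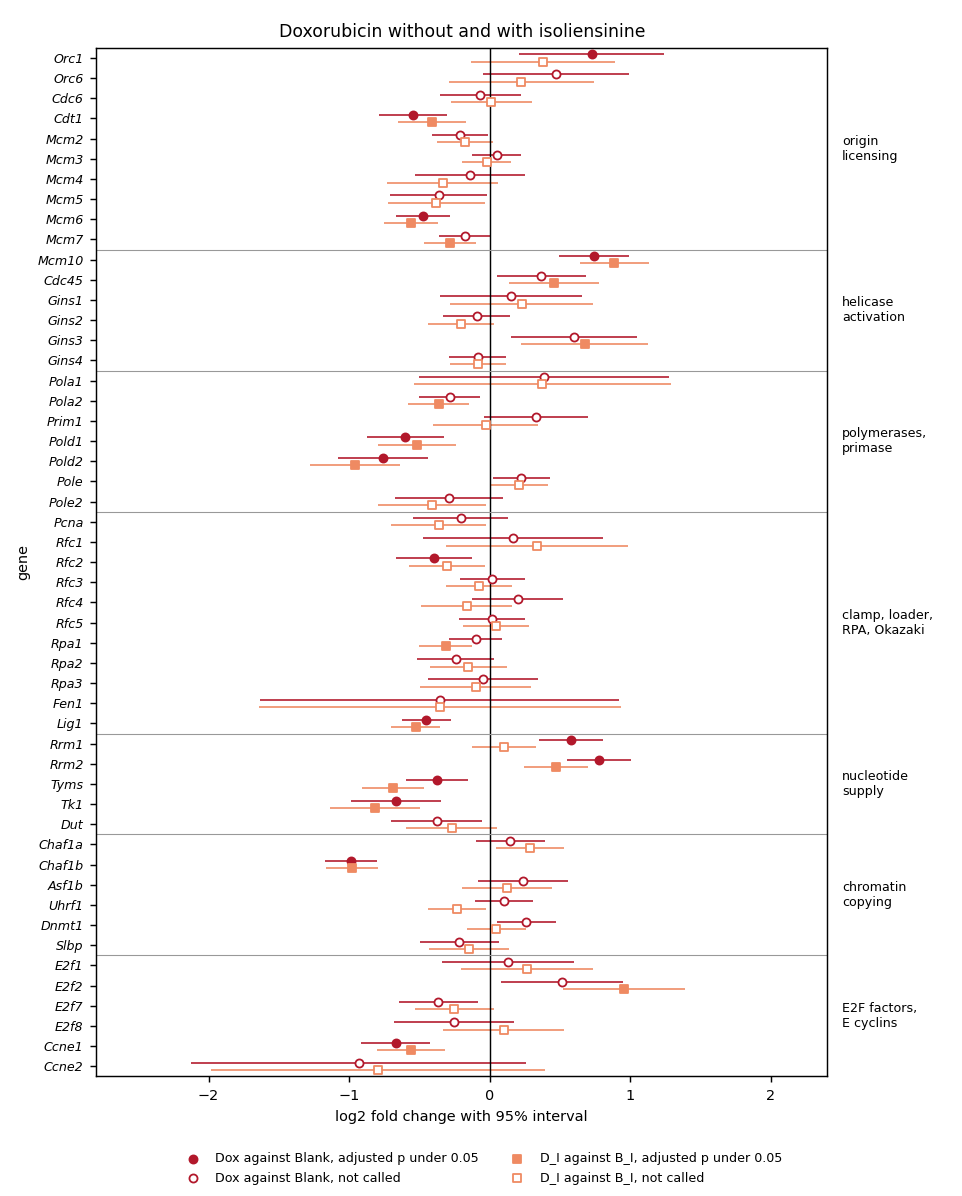
Log2 fold change (points) with its 95% interval (lines) for each of the 51 members, in Dox against Blank (red circles) and D_I against B_I (orange squares), with filled symbols for adjusted p under 0.05 and members grouped by role. Chaf1b lies near -1 in both (-0.99 and -0.98), and Mcm10 at 0.74 and 0.89.

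Among the 10 licensing genes, Cdt1 and Mcm6 fell in Dox and Orc1 rose, and in D_I Cdt1, Mcm6 and Mcm7 fell. Cdt1, the licensing factor that loads the helicase and is destroyed in S phase, had 257, 255 and 215 CPM in Dox, against 327, 323 and 414 CPM in Blank (log2 -0.55, SE 0.116, edgeR adjusted p = 0.00162). It had 275, 265 and 281 CPM in D_I, against 312, 384 and 396 CPM in B_I (log2 -0.41, SE 0.116, edgeR adjusted p = 0.0156). Both treated groups lay wholly below their controls, and the D_I call was lost without D_I_1 or D_I_2 (adjusted p 0.00292 to 0.0694 over the alternatives). Mcm6, a helicase subunit, had 532, 537 and 514 CPM in Dox, against 705, 682 and 813 CPM in Blank (log2 -0.48, SE 0.092, edgeR adjusted p = 0.000765). With isoliensinine, Mcm6 had 485, 465 and 475 CPM in D_I, against 675, 679 and 749.9 CPM in B_I (log2 -0.56, SE 0.093, edgeR adjusted p = 0.000187). The groups did not overlap in either comparison, and both calls held under all 14 alternatives. Orc1, the origin recognition subunit made in late G1, had 11.8, 12.4 and 12.8 CPM in Dox, against 10.5, 7.52 and 4.28 CPM in Blank (log2 0.72, SE 0.247, edgeR adjusted p = 0.0396). Its Blank values were spread widely, with Blank_4 the lowest. Without Blank_4 the log2 change of Orc1 was 0.42 and not called (adjusted p = 0.234; 0.00637 to 0.259 over the alternatives, in 9 of which the call was lost), nor was it called without D_I_2, H_I_1 or B_I_2, which are outside the comparison but share its estimate of the spread.

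Of the other helicase subunits, Mcm7 was called in D_I (log2 -0.29, edgeR adjusted p = 0.027), a call lost without any 1 of the D_I libraries or B_I_3 (0.000933 to 0.102), and not in Dox (log2 -0.18, edgeR adjusted p = 0.164). Mcm2 had 591, 639 and 557 CPM in Dox, against 649, 651 and 768 CPM in Blank (log2 -0.21, SE 0.096, edgeR adjusted p = 0.127). It had 611, 635 and 618 CPM in D_I, against 654, 693 and 763 CPM in B_I (log2 -0.18, edgeR adjusted p = 0.213). The Mcm2 groups did not overlap, but the gene was not called in either by the main fit. DESeq2 called Mcm2 (log2 -0.25, adjusted p = 0.0447) and Mcm7 (-0.22, 0.0417) lower in Dox. Mcm3 had log2 changes of 0.05 in Dox and -0.02 in D_I, Mcm4 -0.14 and -0.34, and Mcm5 -0.36 and -0.38, none called by the main fit. Mcm5 was called lower in D_I with only the groups compared (log2 -0.40, adjusted p = 0.0447) and with the replicate block (-0.37, 0.0221). It was also called without Blank_4 (-0.41, 0.0131), which is outside that comparison. Cdc6, the loader ATPase, had 134, 140.4 and 125 CPM in Dox, against 111, 136 and 173 CPM in Blank, with overlapping groups (log2 -0.07, SE 0.138, edgeR adjusted p = 0.788). Its level was 133, 122 and 134 CPM in D_I, against 127, 113 and 146 CPM in B_I (log2 0.01, edgeR adjusted p = 0.969). Orc6 was not called (log2 0.47, edgeR adjusted p = 0.198 in Dox; log2 0.22 in D_I).

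Among the 6 helicase activation genes 1 rose in Dox and 3 in D_I, and none fell. Mcm10, which starts unwinding at the loaded helicase, had 84.96, 90.0 and 96.4 CPM in Dox, against 54.1, 60.02 and 48.2 CPM in Blank (log2 0.74, SE 0.119, edgeR adjusted p = 0.000121). In the isoliensinine arms Mcm10 had 94.3, 103 and 90.5 CPM in D_I, against 58.1, 53.8 and 43.6 CPM in B_I (log2 0.89, SE 0.12, edgeR adjusted p = 2.22e-05). Every treated library lay above every control library, and the calls held under all 14 alternatives. Cdc45, the helicase cofactor, had 121, 123 and 116 CPM in D_I, against 77.3, 72.6 and 112 CPM in B_I (log2 0.46, SE 0.153, edgeR adjusted p = 0.0408), and Gins3, a GINS subunit, had 14.9, 16.01 and 13.1 CPM in D_I, against 7.74, 11.2 and 8.60 CPM in B_I (log2 0.68, SE 0.218, edgeR adjusted p = 0.0332). Neither was called in Dox (Cdc45 log2 0.37, edgeR adjusted p = 0.0943; Gins3 log2 0.60, edgeR adjusted p = 0.0511). Cdc45 was called higher in Dox without Blank_4 (log2 0.53, adjusted p = 0.00865), with the replicate block (0.52, 0.0146) and without Blank_4 and B_I_3 (0.53, 0.000584). Number 4 belongs to Blank_4 alone, so the replicate block also takes Blank_4 out of the comparison. These fits of Cdc45 are therefore not separate checks. Gins3 was called higher in Dox with a filter of 5 CPM (0.59, 0.043) and without Blank_2 (0.81, 0.017). Each D_I call was lost in 7 of 14 alternatives, that of Cdc45 without any 1 D_I library, B_I_1 or B_I_2 and that of Gins3 without D_I_1, D_I_2, B_I_1 or B_I_3 (8.77e-05 to 0.214 for Cdc45 and 0.0201 to 0.121 for Gins3), and outside the groups compared Cdc45 was lost without Dox_1 or any 1 H_I library and Gins3 without H_I_1. Gins1, Gins2 and Gins4 had log2 changes between -0.20 and 0.23 in both comparisons and were not called.

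Of the 7 polymerase and primase genes 2 fell in Dox and 3 in D_I, and none rose. Pold2, the accessory subunit of polymerase delta, had 104, 115 and 97.9 CPM in Dox, against 150.0, 150.3 and 237 CPM in Blank (log2 -0.76, SE 0.154, edgeR adjusted p = 0.00111). With isoliensinine Pold2 had 95.8, 96.4 and 100.4 CPM in D_I, against 165, 180.4 and 223 CPM in B_I (log2 -0.96, SE 0.155, edgeR adjusted p = 0.000155). The 3 D_I libraries were nearly level and far below B_I. Pold1, the catalytic subunit, had 213, 225 and 193 CPM in Dox, against 295, 284 and 377 CPM in Blank (log2 -0.60, SE 0.133, edgeR adjusted p = 0.00232), and 225, 221 and 245 CPM in D_I, against 287, 331 and 369.7 CPM in B_I (log2 -0.52, SE 0.133, edgeR adjusted p = 0.00858). The Pold1 and Pold2 calls held under all 14 alternatives in both comparisons. Pola2, the regulatory subunit of polymerase alpha, was called in D_I (log2 -0.36, edgeR adjusted p = 0.0174; 0.00286 to 0.0879 over the alternatives, lost without D_I_1, D_I_2 or B_I_3) and not in Dox (log2 -0.29, edgeR adjusted p = 0.0557), where 5 alternatives called it. Pole, the leading-strand polymerase, was not called (log2 0.22, edgeR adjusted p = 0.114 in Dox; log2 0.21 in D_I), although every Dox and D_I library lay above its controls. Pole2 (log2 -0.29 in Dox and -0.41 in D_I), Prim1 (0.33 and -0.03) and Pola1 (0.39 and 0.37) were not called by the main fit. Pole2 was called lower in D_I without D_I_1 (log2 -0.62, adjusted p = 0.0469).

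Among the 11 genes of the clamp, its loader, RPA and Okazaki fragment joining, 2 fell in each comparison and none rose. Lig1, the ligase that seals Okazaki fragments, had 238, 246 and 237 CPM in Dox, against 335, 327 and 326 CPM in Blank (log2 -0.45, SE 0.083, edgeR adjusted p = 0.00046). In the isoliensinine arms Lig1 had 235, 236 and 221 CPM in D_I, against 336, 333 and 329 CPM in B_I (log2 -0.53, SE 0.083, edgeR adjusted p = 0.000122). Its groups were far apart for their spread, and both calls held under all 14 alternatives. Rfc2, a clamp loader subunit, was called in Dox (log2 -0.40, SE 0.13, edgeR adjusted p = 0.0335), but not without Blank_4 (log2 -0.23, adjusted p = 0.148), Dox_1 or Dox_3 (0.00706 to 0.161 over the alternatives). In D_I the main fit did not call Rfc2. It was called lower there with the replicate block (log2 -0.30, adjusted p = 0.0333) and without Blank_4 (-0.33, 0.0143), which is outside that comparison. Rpa1, the large RPA subunit, was called in D_I (log2 -0.31, edgeR adjusted p = 0.0178; lost without D_I_1 or D_I_3, 0.000759 to 0.0923). Pcna, the clamp itself, had 43.1, 43.2 and 47.3 CPM in Dox, against 59.7, 54.5 and 39.97 CPM in Blank, with overlapping groups (log2 -0.21, SE 0.161, edgeR adjusted p = 0.412). Pcna had 36.2, 35.6 and 40.2 CPM in D_I, against 57.7, 45.2 and 40.9 CPM in B_I, with D_I wholly below B_I but not called (log2 -0.36, edgeR adjusted p = 0.131; called without Blank_4 and B_I_3 at log2 -0.50, adjusted p = 0.0145; 0.0145 to 0.438 over the alternatives). The remaining 7, Rfc1, Rfc3, Rfc4, Rfc5, Rpa2, Rpa3 and Fen1, were called in neither comparison.

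The 5 nucleotide supply genes split by enzyme: both subunits of ribonucleotide reductase rose in Dox and the thymidylate enzymes fell. Rrm2, the small subunit that limits the reductase in S phase, had 99.9, 97.3 and 106 CPM in Dox, against 59.9, 56.9 and 60.4 CPM in Blank (log2 0.78, SE 0.11, edgeR adjusted p = 2.86e-05). With isoliensinine Rrm2 had 83.4, 72.9 and 81.4 CPM in D_I, against 53.9, 52.2 and 65.8 CPM in B_I (log2 0.47, SE 0.11, edgeR adjusted p = 0.00439). All treated libraries lay above all controls. Rrm1, the large subunit, had 696, 674 and 707 CPM in Dox, against 462, 449 and 482 CPM in Blank (log2 0.58, SE 0.11, edgeR adjusted p = 0.000632). Rrm1 had 564, 528 and 501 CPM in D_I, against 519, 452 and 513 CPM in B_I, where the groups overlapped and no call was made (log2 0.10, SE 0.109, edgeR adjusted p = 0.586). Tk1, thymidine kinase, had 118, 113 and 99.03 CPM in Dox, against 162, 137 and 227 CPM in Blank (log2 -0.67, SE 0.154, edgeR adjusted p = 0.00315). With isoliensinine Tk1 had 99.2, 91.2 and 103 CPM in D_I, against 147, 157 and 214 CPM in B_I (log2 -0.82, SE 0.155, edgeR adjusted p = 0.000758). No Tk1 library of a treated group reached its controls. Tyms, thymidylate synthase, had 94.1, 101 and 97.9 CPM in Dox, against 125, 117 and 138 CPM in Blank (log2 -0.38, SE 0.105, edgeR adjusted p = 0.0122). The Tyms levels were 78.7, 89.3 and 78.9 CPM in D_I, against 127, 126 and 145 CPM in B_I (log2 -0.69, SE 0.105, edgeR adjusted p = 8.52e-05). Tk1 and Tyms lay below every control library in both comparisons, and of these calls that of Tyms in Dox was lost without Dox_1 (adjusted p = 0.0614; 0.00136 to 0.0614 over the alternatives). Dut, dUTPase, was not called (log2 -0.38, edgeR adjusted p = 0.09 in Dox; log2 -0.27 in D_I).

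In the chromatin group Chaf1b, the middle subunit of the histone chaperone CAF-1, had the smallest adjusted p of the 51 members in both comparisons. It had 113, 111 and 105 CPM in Dox, against 211, 211 and 232 CPM in Blank, a level 1.99-fold higher in Blank (log2 -0.99, SE 0.089, edgeR adjusted p = 1.2e-07). In the isoliensinine arms it had 121, 114 and 123 CPM in D_I, against 225, 249 and 233 CPM in B_I (log2 -0.98, SE 0.09, edgeR adjusted p = 2.11e-07). The highest treated library was far under the lowest control. Its partner Chaf1a, the large CAF-1 subunit, was not called (log2 0.15, 95% interval -0.10 to 0.39 in Dox; 0.29, 0.04 to 0.53 in D_I), and these intervals do not reach those of Chaf1b. Slbp, which binds the stem-loop of histone mRNAs, had 67.1, 61.9 and 70.2 CPM in Dox, against 75.8, 91.1 and 64.8 CPM in Blank (log2 -0.22, SE 0.136, edgeR adjusted p = 0.286). Slbp had 55.9, 58.8 and 55.1 CPM in D_I, against 65.1, 64.2 and 59.2 CPM in B_I, with D_I below B_I and no call (log2 -0.15, edgeR adjusted p = 0.502). Asf1b, Uhrf1 and Dnmt1 were called in neither, with log2 changes of 0.23, 0.10 and 0.26 in Dox and 0.12, -0.24 and 0.05 in D_I. Asf1b was called higher in Dox without Blank_4 (log2 0.44, adjusted p = 0.0207), with the replicate block (0.41, 0.0257) and without Blank_4 and B_I_3 (0.44, 0.00368). Each of these fits of Asf1b takes Blank_4 out of the comparison. Uhrf1 was called lower in D_I by DESeq2 (-0.28, 0.026) and in 3 other alternatives, and Chaf1a higher in D_I with the replicate block (0.29, 0.0333) and without Blank_4 and B_I_3 (0.34, 0.0132).

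Of the transcription factors and cyclins, Ccne1, cyclin E, the partner of Cdk2 at the start of S phase, had 65.9, 74.6 and 67.7 CPM in Dox, against 111, 96.4 and 124 CPM in Blank (log2 -0.67, SE 0.118, edgeR adjusted p = 0.000303). With isoliensinine Ccne1 had 77.1, 70.1 and 63.9 CPM in D_I, against 95.1, 102 and 114 CPM in B_I (log2 -0.56, SE 0.118, edgeR adjusted p = 0.00184). The groups were separate in both and both calls held under all 14 alternatives. E2f2, an activating E2F, had 57.03, 51.1 and 60.2 CPM in D_I, against 25.2, 28.3 and 33.4 CPM in B_I and rose (log2 0.95, SE 0.21, edgeR adjusted p = 0.00278). E2f2 had 50.5, 50.4 and 41.7 CPM in Dox, against 28.3, 24.7 and 47.04 CPM in Blank, where Blank_4 overlapped Dox and no call was made (log2 0.52, SE 0.208, edgeR adjusted p = 0.0843). Blank_4 stood with the Dox libraries, and E2f2 was called higher in Dox without Blank_4 (log2 0.815, adjusted p = 0.00235), with the replicate block (0.79, 0.00391) and without Blank_4 and B_I_3 (0.82, 0.000948). Each of these fits of E2f2 takes Blank_4 out of the comparison. E2f1, the best-known activator, had 169, 213 and 173 CPM in Dox, against 149.9, 138 and 219 CPM in Blank (log2 0.13, SE 0.223, edgeR adjusted p = 0.746). E2f1 had 187, 212 and 211 CPM in D_I, against 133, 149 and 226 CPM in B_I (log2 0.27, edgeR adjusted p = 0.467). In both comparisons of E2f1 a control library, Blank_4 or B_I_3, was the highest. The repressor E2f7 had 31.3, 25.7 and 31.8 CPM in Dox, against 39.9, 39.7 and 34.9 CPM in Blank and missed the threshold (log2 -0.37, SE 0.134, edgeR adjusted p = 0.0553), though every Dox library lay below every Blank library and 6 alternatives called it, fits without Blank_4 among them (0.0126 to 0.233). It had 28.2, 29.6 and 26.6 CPM in D_I, against 31.4, 32.9 and 36.4 CPM in B_I (log2 -0.25, edgeR adjusted p = 0.213). E2f8, its relative, was not called (log2 -0.25 in Dox and 0.10 in D_I). Ccne2, the other cyclin E, had 1.09, 0.534 and 1.18 CPM in Dox, against 2.93, 1.17 and 1.28 CPM in Blank and 0.809, 1.61 and 1.25 CPM in D_I, against 3.08, 1.36 and 1.93 CPM in B_I, levels near the bottom of the members and not called (95% interval of log2 -2.13 to 0.26 in Dox and -1.98 to 0.39 in D_I).

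**Figure D3:**
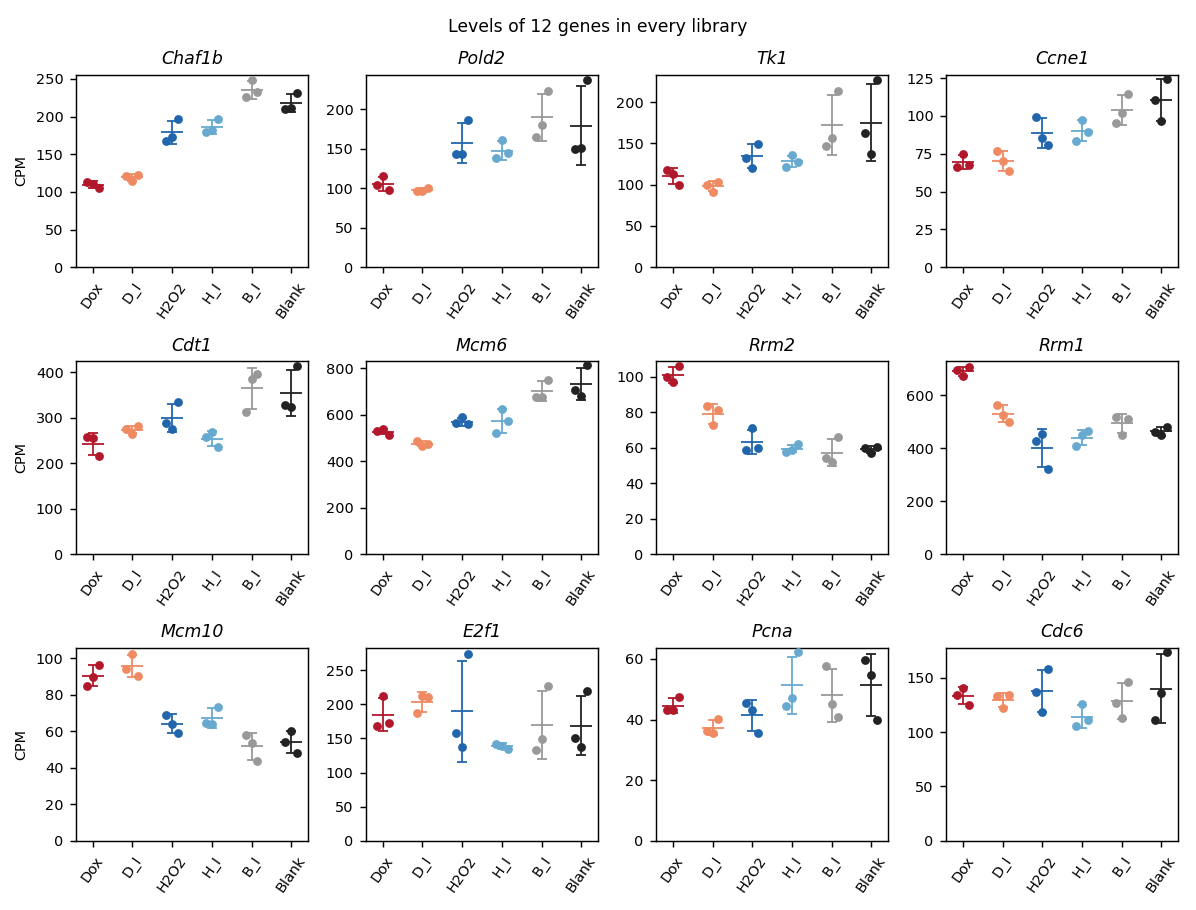
CPM of 12 members in every library (points) with the group mean and SD (bars, n = 3), Dox at the left of each panel and Blank at the right, each panel on its own scale starting at 0. Chaf1b, Pold2, Tk1, Ccne1, Cdt1 and Mcm6 are lower in Dox and D_I, Rrm2 and Mcm10 are higher in both, Rrm1 in Dox, and E2f1, Pcna and Cdc6 overlap their controls in Dox.

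D_I was set against Dox to ask whether isoliensinine changed these genes in doxorubicin-treated cells. No member was called by edgeR, nor was any of the 13375 genes (0%), with 5 members at an unadjusted p under 0.05 and 0 members called by DESeq2. Rrm1 had 564, 528 and 501 CPM in D_I, against 696, 674 and 707 CPM in Dox, and the groups did not overlap (log2 -0.38, SE 0.109, edgeR adjusted p = 0.721). Rrm2 had 83.4, 72.9 and 81.4 CPM in D_I, against 99.9, 97.3 and 106 CPM in Dox, again without overlap (log2 -0.35, SE 0.108, edgeR adjusted p = 0.793). Fitted with the 6 libraries of these groups alone, Rrm1 (log2 -0.40, adjusted p = 0.00166), Rrm2 (-0.37, 0.0187), Rpa1 (-0.27, 0.0268) and Uhrf1 (-0.28, 0.0314) were called lower in D_I. Over all genes that fit called 263. In all, 3 members lay wholly higher and 12 wholly lower in D_I, 5.88% and 23.5%, against 10.2% and 8.62% of all genes. The difference between the doxorubicin effects with and without isoliensinine was tested directly, and 0 members were called by edgeR or by DESeq2, with 3 at an unadjusted p under 0.05 (0% of all genes called). For Rrm1 that difference was -0.48 on the log2 scale (95% interval -0.80 to -0.15, adjusted p = 1.0), so the call in Dox and its lack in D_I do not show that the effects differed.

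With hydrogen peroxide no member passed the threshold in cells without isoliensinine. In H2O2 against Blank 0 of 51 members were called by edgeR, against 1.43% of all genes, with 13 members at an unadjusted p under 0.05. DESeq2 called 3 lower: E2f7, Lig1 and Mcm6. Without overlap, 1 member lay higher and 6 lower in H2O2 (5.91% and 7.79% of all genes; 0.636% and 0.793% called). The median log2 was -0.16 over the members and -0.02 over all genes. E2f7 had 27.2, 28.8 and 23.5 CPM in H2O2, against 39.9, 39.7 and 34.9 CPM in Blank (log2 -0.53, SE 0.136, edgeR adjusted p = 0.0543), and without Blank_4 it was called (log2 -0.58, adjusted p = 0.0426; 0.0113 to 0.626 over the alternatives). Mcm6 had 563, 591 and 559 CPM in H2O2, against 705, 682 and 813 CPM in Blank (log2 -0.36, edgeR adjusted p = 0.0539), and Lig1 had 282, 275 and 252 CPM in H2O2, against 335, 327 and 326 CPM in Blank (log2 -0.29, edgeR adjusted p = 0.0899). In all 3 genes every H2O2 library lay below every Blank library. Chaf1b had 168, 173 and 197 CPM in H2O2, against 211, 211 and 232 CPM in Blank, separate but not called (log2 -0.28, edgeR adjusted p = 0.126). E2f1 had 158, 138 and 274 CPM in H2O2, against 149.9, 138 and 219 CPM in Blank, H2O2_3 being far above the other H2O2 libraries, and its log2 change was 0.17 with that library and -0.19 without it, not called either way.

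In the isoliensinine arms, H_I against B_I, 1 member was called, Cdt1, which fell (1.46% of all genes called; 0.464% higher and 0.994% lower). Cdt1 had 257, 268 and 236 CPM in H_I, against 312, 384 and 396 CPM in B_I (log2 -0.52, SE 0.117, edgeR adjusted p = 0.0269). The groups were separate, but the call was lost in 7 of 14 alternatives, including without any 1 H_I library, B_I_2 or B_I_3 (0.00486 to 0.143). DESeq2 called Cdt1, Chaf1b, Lig1 and Mcm6, all lower. Chaf1b had 179, 183 and 196 CPM in H_I, against 225, 249 and 233 CPM in B_I (log2 -0.34, edgeR adjusted p = 0.0535). Without overlap, 18 members lay lower and 1 higher in H_I than in B_I, 35.3% and 1.96%, against 12.1% and 11.1% of all genes, and the member median was -0.17, against 0.05. The difference between the peroxide effects with and without isoliensinine was called for 0 members by edgeR or DESeq2 (1 at an unadjusted p under 0.05; 0% of all genes).

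The other genes followed in every comparison had these levels in the peroxide groups, their Blank and B_I values being given above. Mcm2, in the helicase, had 632, 658 and 727 CPM in H2O2 (log2 -0.04 against Blank) and 604, 629.5 and 635 CPM in H_I (log2 -0.18 against B_I). Cdc6, the loader, had 136, 119 and 157 CPM in H2O2 (log2 -0.02 against Blank) and 105, 125 and 111 CPM in H_I (log2 -0.17 against B_I). Ccne1, cyclin E, had 99.6, 85.7 and 80.7 CPM in H2O2 (log2 -0.32 against Blank) and 83.6, 97.6 and 89.7 CPM in H_I (log2 -0.20 against B_I). None of these was called, and for Mcm2, Cdc6 and Ccne1 the H2O2 and Blank libraries overlapped. Pcna, the clamp, had 45.5, 43.02 and 35.5 CPM in H2O2 (log2 -0.32 against Blank) and 44.5, 47.2 and 62.1 CPM in H_I (log2 0.10 against B_I). Tyms, thymidylate synthase, had 106, 109 and 126 CPM in H2O2 (log2 -0.16 against Blank) and 105, 100.1 and 118 CPM in H_I (log2 -0.30 against B_I). Rrm2, the reductase subunit, had 58.5, 70.9 and 59.8 CPM in H2O2 (log2 0.10 against Blank) and 57.8, 58.7 and 61.9 CPM in H_I (log2 0.05 against B_I). Every H_I library of Tyms lay below every B_I library, again without a call. Slbp, the histone mRNA binding protein, had 59.4, 71.4 and 49.8 CPM in H2O2 (log2 -0.36 against Blank) and 55.2, 70.7 and 64.9 CPM in H_I (log2 0.02 against B_I). Ccne2, the low cyclin E, had 1.27, 1.798 and 0.466 CPM in H2O2 (log2 -0.59 against Blank) and 1.77, 2.65 and 1.75 CPM in H_I (log2 -0.04 against B_I). Rrm2, which rose in Dox and D_I, had log2 changes near 0 with peroxide. Cdt1 had 288, 275 and 334 CPM in H2O2, overlapping Blank (log2 -0.25), and E2f1 142, 139 and 135 CPM in H_I (log2 -0.29 against B_I).

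Dox and H2O2 were compared directly, since a call in 1 and not the other does not show a difference. In Dox against H2O2, 6 members were higher and 2 lower (15.7%), against 13.1% of all genes, 6.73% higher and 6.33% lower. Rrm1 had 696, 674 and 707 CPM in Dox, against 429, 454 and 321 CPM in H2O2 (log2 0.79, SE 0.11, edgeR adjusted p = 7.88e-05). Rrm2 had 99.9, 97.3 and 106 CPM in Dox, against 58.5, 70.9 and 59.8 CPM in H2O2 (log2 0.68, SE 0.109, edgeR adjusted p = 0.000297). No H2O2 library of either reductase gene reached Dox, and the 95% interval of the log2 change was 0.56 to 1.01 for Rrm1 and 0.45 to 0.91 for Rrm2. Mcm10 had 84.96, 90.0 and 96.4 CPM in Dox, against 69.2, 64.3 and 59.1 CPM in H2O2 (log2 0.49, SE 0.119, edgeR adjusted p = 0.00785). Dnmt1, the maintenance DNA methyltransferase, had 311, 286 and 326 CPM in Dox, against 215, 251 and 191 CPM in H2O2 (log2 0.49, SE 0.101, edgeR adjusted p = 0.0023). Both were higher in every Dox library than in every H2O2 library. Chaf1b had 113, 111 and 105 CPM in Dox, against 168, 173 and 197 CPM in H2O2 (log2 -0.71, SE 0.089, edgeR adjusted p = 2.77e-05). Pold2 had 104, 115 and 97.9 CPM in Dox, against 143, 143 and 187 CPM in H2O2 (log2 -0.58, SE 0.154, edgeR adjusted p = 0.016). Uhrf1, the partner of Dnmt1 on hemimethylated DNA, and Pole were also higher (log2 0.42, edgeR adjusted p = 0.00728 and log2 0.37, edgeR adjusted p = 0.0152). The calls of Rrm1, Rrm2, Dnmt1 and Chaf1b held under all 14 alternatives. Without H2O2_3 and H_I_1 those of Mcm10, Pold2, Uhrf1 and Pole were lost, Pold2 also without Dox_1, Dox_3 or H2O2_3 and Pole also without Dox_1 or H2O2_3; over the alternatives these ran 0.00142 to 0.094, 4.3e-05 to 0.108, 0.00211 to 0.102 and 0.0125 to 0.123. Some alternatives added calls. Ccne1 was called lower in Dox by DESeq2 (log2 -0.41, adjusted p = 0.0147), without H2O2_3 (-0.41, 0.0482) and in other fits. Cdt1 was called lower by DESeq2 (-0.36, 0.0358) and in other fits. Prim1 (0.54, 0.0134) and E2f2 (0.54, 0.0242) were called higher with the replicate block and in other fits. Without Blank_4 and B_I_3 the count was 8 higher and 8 lower.

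Isoliensinine alone moved no member past the threshold. In B_I against Blank 0 of 51 were called by edgeR and 0 by DESeq2, against 0% of all genes, with 1 member at an unadjusted p under 0.05 and a median log2 of 0.01. In H_I against H2O2 likewise 0 members were called by both tools (0% of all genes; 3 at an unadjusted p under 0.05). Chaf1b had 225, 249 and 233 CPM in B_I, against 211, 211 and 232 CPM in Blank (log2 0.11, 95% interval -0.07 to 0.30), and Rrm2 had 53.9, 52.2 and 65.8 CPM in B_I, against 59.9, 56.9 and 60.4 CPM in Blank (-0.04, -0.27 to 0.19). Mcm6 had 523, 625 and 574 CPM in H_I, against 563, 591 and 559 CPM in H2O2 (0.01, -0.18 to 0.20). These intervals bound the change but do not show that isoliensinine left the genes as they were.

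Beside the members, 45 other replication and E2F genes were followed. In Dox against Blank 4 were higher, Clspn (0.79), the checkpoint adaptor claspin, Orc3 (0.65), an origin recognition subunit, Prim2 (0.46), the large primase subunit, and Ticrr (0.49), which helps to activate origins, and 3 lower, Dctpp1 (-0.81), a nucleotide pyrophosphatase, Mybl2 (-0.50), a cell cycle transcription factor, and Tipin (-0.43), a fork protection factor (log2 in parentheses). In D_I against B_I 3 were higher, Clspn (0.89), Gmnn (0.80), the inhibitor of Cdt1, and Ticrr (0.68), and 3 lower, Dna2 (-1.04), Dctpp1 (-0.95) and Tipin (-0.35). In Dox against H2O2 3 were higher, Clspn (1.25), Ticrr (0.83) and Orc3 (0.66), and 2 lower, Dctpp1 (-0.66) and Tipin (-0.37). The calls were 15.6% of the 45 in Dox against Blank, 13.3% in D_I against B_I and 11.1% in Dox against H2O2. These shares were below those of all tested genes, 21.7%, 18.8% and 13.1%. In each of the other 5 comparisons of groups edgeR called none, with 4 of the 45 at an unadjusted p under 0.05 in H2O2 against Blank, 7 in H_I against B_I, 2 in H_I against H2O2, 5 in B_I against Blank and 1 in D_I against Dox. Clspn had 28.5, 21.2 and 36.98 CPM in Dox, against 17.7, 18.7 and 13.5 CPM in Blank (log2 0.79, SE 0.218, edgeR adjusted p = 0.0115). Gmnn, geminin, had 11.3, 13.8 and 12.3 CPM in D_I, against 5.88, 8.13 and 7.38 CPM in B_I (log2 0.80, SE 0.202, edgeR adjusted p = 0.00731).

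Of the 30 mitosis genes, those called with doxorubicin all rose, whereas the called members went both ways. In Dox against Blank 16 were higher and 0 lower, with a median log2 of 0.68, and in D_I against B_I 19 and 0, with a median of 0.61. In Dox against H2O2 16 were higher and 0 lower. The shares higher were 53.3%, 63.3% and 53.3% of the 30, against 10.3%, 9.41% and 6.73% of all tested genes. Their summed level was 4031, 3921 and 4045 CPM in Dox, 3669.9, 3582 and 3632 in D_I, 3088, 2977 and 2558 in H2O2, 2822, 2901 and 2800.1 in H_I, 2636, 2545 and 3011 in B_I and 2553, 2603 and 2973 in Blank. Every Dox and D_I library lay above all other libraries. With peroxide 1 rose in each comparison, Aurka (0.54) in H2O2 and Bub1b (0.40) in H_I. That is 3.33% of the 30 each time, against 0.636% and 0.464% of all tested genes higher.

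**Figure D4:**
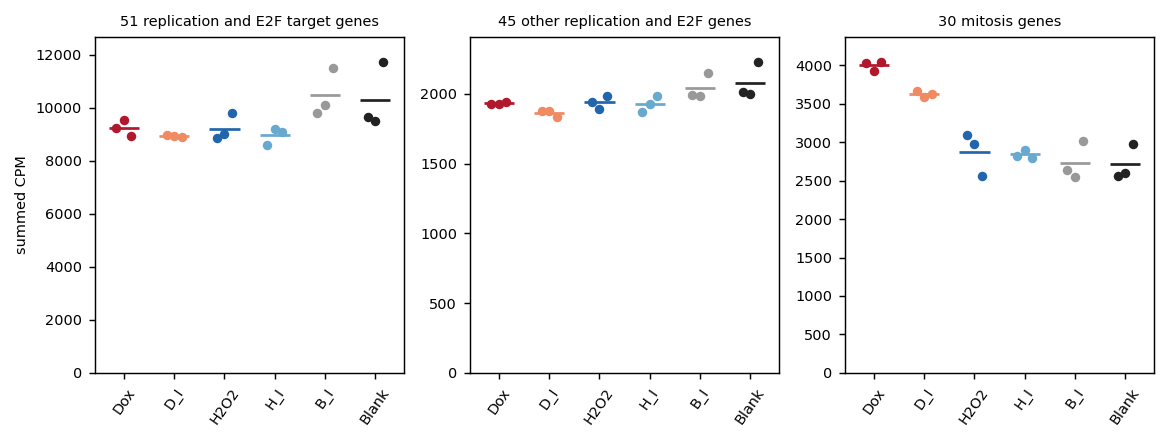
Summed CPM per library (points) with the group mean (line) for the 51 members, 45 other replication and E2F genes and 30 mitosis genes, Dox at the left of each panel and Blank at the right, axes starting at 0. Member sums are 8919 to 9525 in Dox and 9514 to 11740 in Blank, while mitosis sums are 3921 to 4045 in Dox and 2553 to 2973 in Blank.

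The promoter words were then read beside the calls, as a description without a test, since the groups were made from these calls. Of the 7 members that rose in Dox against Blank or D_I against B_I, all 7 held a CCAAT word, 3 an E2F word and 3 a cell cycle homology region. The region of E2f2 is counted here, though it stands only in a window with coding bases. Of the 13 that fell, 12 had a window, and 4 held a CCAAT word, 5 an E2F word and 1 a cell cycle homology region. The CCAAT word was thus in 100% of the members that rose and 33.3% of those that fell, and the E2F word in 42.9% and 41.7%. Of the 25 with a window that were called in neither, 18 held a CCAAT word, 9 an E2F word and 5 a cell cycle homology region. The 25 include E2f1 and Dut, whose windows lie partly in coding sequence and hold no word. They also include Dnmt1, whose E2F words stand only in a window with coding bases. Among 24 mitosis genes with a window, 20 held a CCAAT word, 18 a cell cycle homology region and 1 an E2F word. Tyms, Tk1, Chaf1b, Ccne1 and Pola2, all of which fell, held none of these words.

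**Figure D5:**
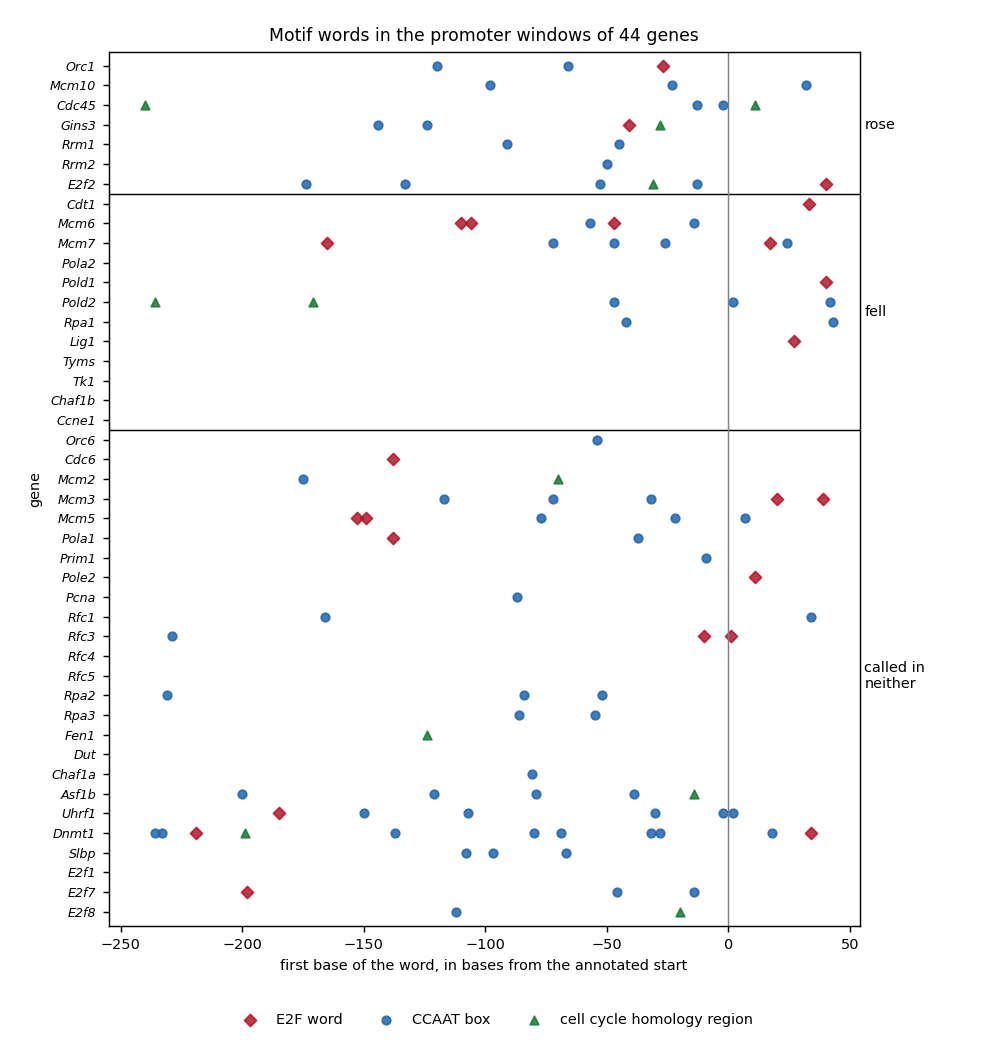
Position of each E2F word (red diamonds), CCAAT box (blue circles) and cell cycle homology region (green triangles) in the promoter windows of 44 members, all annotated starts of a gene drawn on 1 line and the windows of E2f1 and Dut lying in coding sequence, in bases from the annotated start, with members grouped by their call in Dox against Blank or D_I against B_I. All 7 members that rose carry a blue circle, against 4 of the 12 that fell.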

How the data were processed

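RNA-seq of 18 MOVAS libraries, 6 groups of 3, was analysed. The deposited table holds whole-number read counts per gene, without normalization per the file headers, and FPKM values made by the authors, each of which equalled count over gene length and library total within a relative difference of 1e-06. The submitters' processing notes name fastp 0.22.0, HISAT2 2.1.0 and HTSeq 0.9.1 with no role for each; the build of the deposited table and strand use in counting are not stated. The design text speaks of biological replicates, and the lowest chi-square per degree of freedom between replicates was 5.51, so none was counted as a repeat. Totals were 12859609 to 23284077 counts, and 0 columns belonged to other samples.

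Counts were fitted in R 4.3.3 with edgeR 4.0.16 (filterByExpr, TMM, robust quasi-likelihood), as 1 model of all 18 libraries, with adjustment over 13375 genes. The same fit gave 8 comparisons of groups and 2 differences of effects. Levels are CPM scaled by TMM. Intervals are at 95%. Alternatives were DESeq2 1.42.0, its size factors, leaving low counts in, keeping genes at 5 CPM in 3 libraries, fits of the compared groups alone, a replicate block, and libraries left out singly or as the pairs Blank_4 with B_I_3 and H2O2_3 with H_I_1. The pipeline was tested on simulated data, with changes put into randomly picked genes. Over the 8 comparisons it called 7.6% to 15.2% of genes changed 1.41-fold and 56.7% to 64.2% of those changed 2-fold. A gene that was not called may therefore still have changed.

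Members and lists were chosen with earlier results of these data known. Values in every library are given for up to 4 called members with the largest change each way per comparison, up to 6 each way in Dox against Blank and D_I against B_I, and for 12 fixed genes: Pcna, Mcm2, Cdc6, Cdt1, Ccne1, Ccne2, E2f1, E2f7, Rrm2, Tyms, Chaf1b and Slbp. Others so given were chosen after their values were seen. Promoters came from RefSeq, GRCm38.p6, and their windows were checked against the coding sequence of GENCODE vM21.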

Additional observations from a re-analysis of the deposited data

How the results depend on the processing

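Single libraries were left out of the groups compared unless stated. Over the alternatives, 12 to 18 of 51 members were called in Dox against Blank and 16 to 20 in D_I against B_I, and 11 to 16 and 12 to 16 when single libraries were left out, and 13 to 19 and 15 to 19 without single libraries of the other groups, which share the estimate of the spread, so both counts stayed within 1.5 times of 14 and 17. The count in H2O2 against Blank was 3 by DESeq2, 1 without Blank_4 and B_I_3, and 0 to 1 with single libraries left out, against 0. In H_I against B_I it was 4 by DESeq2, 4 with the replicate block, 2 without Blank_4 and B_I_3, 0 with only the groups compared, 0 without H2O2_3 and H_I_1, and 0 to 2 with single libraries left out, against 1; of libraries outside the comparison, it was 4 without Blank_4 (Cdt1, Chaf1b, Pold1 and Tk1) and 2 without H2O2_3. It was 4 in D_I against Dox with only the groups compared, against 0, and 16 in Dox against H2O2 without Blank_4 and B_I_3, against 8 (8 to 12 without single libraries of other groups). The cause of these moves was not tested. Over all genes, the count in H2O2 against Blank was 191, and 426 by DESeq2, 5 with only the groups compared, 526 without Blank_4 and B_I_3, and 94 and 109 without Blank_1 and without H2O2_1. In H_I against B_I it was 195, and 514 by DESeq2, 35 with only the groups compared, 616 with the replicate block, 80 without H2O2_3 and H_I_1, 37 to 424 with single libraries left out, and 111 to 550 without single libraries of other groups (550 without Blank_4). In D_I against Dox it was 0, and 263 with only the groups compared, 20 by DESeq2 and 21 without Blank_4 and B_I_3. In H_I against H2O2 it was 0, and 70 by DESeq2. In Dox against H2O2 it was 1746, and 2837 without Blank_4 and B_I_3, 1076 without H2O2_3 and H_I_1, and 845 without Dox_3, 983 without Dox_1 and 1080 without H2O2_3. Without Dox_3 the count in Dox against Blank was 1876, against 2896, and in D_I against B_I it was 1615 without D_I_1 and 1658 without D_I_2, against 2518.

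A few log2 changes near 0 turned sign, and none of these was called under any setting. Cdc6 in Dox against Blank (-0.07) was 0.086 with the replicate block and 0.09 without Blank_4 and B_I_3, and -0.207 to 0.087 with single libraries left out. Cdc6 in D_I against B_I (0.01) was -0.038 by DESeq2 and with its size factors, -0.006 with no filter, -0.011 with a filter of 5 CPM, -0.003 with only the groups compared and -0.019 without H2O2_3 and H_I_1, and -0.095 to 0.081 with single libraries left out. Cdc6 in H2O2 against Blank (-0.02) was 0.014 with a filter of 5 CPM, 0.004 with only the groups compared, 0.125 with the replicate block and 0.17 without Blank_4 and B_I_3, and -0.169 to 0.166 with single libraries left out. Mcm2 in H2O2 against Blank (-0.04) was 0.001 with a filter of 5 CPM, 0.03 with the replicate block and 0.061 without Blank_4 and B_I_3, and -0.096 to 0.056 with single libraries left out. E2f1 in H2O2 against Blank (0.17) was -0.159 without H2O2_3 and H_I_1, and -0.193 to 0.40 with single libraries left out.

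Same-numbered libraries deviated together weakly (correlations of -0.188 to 0.279). This does not settle whether equal numbers mark shared cultures. The labels do not say, so the main fit had no replicate block. Number 4 belongs to Blank_4 alone, so the fit with the block also takes Blank_4 out of the comparisons. Fen1, Pola1 and Ccne2 had few counts and were called in no fit that gave them an adjusted p. Isoliensinine arms were read from titles, and 3 libraries a group bound all intervals.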
